A study of Mus musculus with 12 samples.

Results

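The genes described here are 31 genes of myelin and of the mature oligodendrocyte, the cell that wraps axons of the brain in myelin. They were chosen by gene symbol from a named list, with no cut on measured values, but the list was drawn up with earlier results of these data known. All 31 were found among the 23183 symbols of each expression table. The study sequenced RNA of 2 brain regions, hippocampus and prefrontal cortex, in 12 libraries from 6 male C57BL/6 mice. The irradiated group consisted of 3 mice whose abdomen was exposed to X-rays, at 13 Gy according to the library names, as a model of chronic gastrointestinal radiation injury. The control group consisted of 3 mice that were not irradiated. Each mouse gave 1 hippocampus and 1 prefrontal cortex library, so that the 4 groups of tissue and treatment held 3 libraries each. Tissue was taken in the chronic phase after exposure, and the time after exposure and the age of the mice were not given in the sources used here. Neither group carries an allele beyond the strain in the labels, and all libraries carried the same batch label. Libraries of a group came from different mice, so the spread between them includes that between animals.

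Oligodendrocytes arise from precursor cells, extend membrane around axons and compact it into myelin, which speeds conduction and supports the axon. The transcription factors Sox10, Myrf and Nkx6-2 drive or accompany this maturation, and the structural proteins, lipid enzymes, gap junction proteins and secreted proteins listed below are among the products of the mature cell. Some of these genes are not exclusive to it: Enpp2 is strongly expressed by the choroid plexus epithelium, Apod by meningeal and vascular cells, and Gsn, Ndrg1, Trf and Cryab by other glial or vascular cells.

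RefSeq start sites on GRCm38.p6 were found for 22 of the 31 genes, in 30 windows of 250 bases that end just before a start site. Letters of the sequence that the factor MYRF is known to prefer (CTGGCAC or CTGGTAC, either strand) stood in 5 of the 30 windows (16.67%), against 5.93% of all 32851 windows of that length. The windows with a match belonged to 4 genes, Cnp, Hapln2, Mag and Mog, and the pair of matching windows of Mag overlap each other. Letters of the SOX core (ACAAAG or ACAATG, either strand) stood in 12 of the 30 windows (40%) and in 25.24% of all windows. Such a match describes the letters and does not show that a factor binds there. The windows of 4 genes are printed below, 5′ to 3′ on the strand of the gene, with MYRF and SOX letters in capitals, which do not overlap each other in these windows. Mog (chr17:37023399-37023648, minus strand) and Mag (chr7:30914864-30915113, minus strand) are shown for their MYRF letters. Gjb1 (chrX:101383482-101383731, plus strand, 1 of 4 windows of the gene) is shown because it had the smallest p of the 31 genes in irradiated cortex. Mal (chr2:127656696-127656945, minus strand) is shown because its values differed in direction from those of most of the 31 genes, and its window held neither set of letters.
Mog: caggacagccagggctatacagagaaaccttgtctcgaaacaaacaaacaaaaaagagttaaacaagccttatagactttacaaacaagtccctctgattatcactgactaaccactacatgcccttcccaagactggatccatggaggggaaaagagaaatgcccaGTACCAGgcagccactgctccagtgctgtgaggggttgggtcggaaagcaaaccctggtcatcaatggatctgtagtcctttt
Mag: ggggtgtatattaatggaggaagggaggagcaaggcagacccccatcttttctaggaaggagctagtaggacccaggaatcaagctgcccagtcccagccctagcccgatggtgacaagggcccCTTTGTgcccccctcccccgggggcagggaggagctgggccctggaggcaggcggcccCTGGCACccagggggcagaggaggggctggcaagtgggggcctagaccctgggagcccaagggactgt
Gjb1: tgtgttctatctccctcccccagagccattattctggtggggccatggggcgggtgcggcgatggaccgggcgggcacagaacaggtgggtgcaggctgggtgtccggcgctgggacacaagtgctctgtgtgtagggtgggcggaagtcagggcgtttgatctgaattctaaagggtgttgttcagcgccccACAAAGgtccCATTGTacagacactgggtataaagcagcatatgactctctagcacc
Mal: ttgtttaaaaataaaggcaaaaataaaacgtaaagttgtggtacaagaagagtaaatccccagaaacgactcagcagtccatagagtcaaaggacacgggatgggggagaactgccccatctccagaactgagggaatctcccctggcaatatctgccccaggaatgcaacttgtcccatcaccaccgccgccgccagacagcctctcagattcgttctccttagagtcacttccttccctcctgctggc

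Values are FPKM, the fragments of a gene scaled by transcript length in kilobases and by the size of the library, which allow levels of different genes to be set side by side. Differences are on the log2(FPKM + 1) scale with their standard error (SE), from limma fitted to all genes whose mean reached 1 FPKM, and p-values were adjusted by Benjamini and Hochberg's method over all genes tested. A gene was called at an adjusted p under 0.05. All 31 genes passed the minimum in every comparison. From the steps between low values, the libraries were estimated to hold 15.8 M to 19.2 M (mega) fragments, and 12640 to 12967 genes reached 1 FPKM. Pmp2, a gene of peripheral nerve myelin, was listed at 0 in all 3 control hippocampi and did not exceed 0.174 FPKM in any library. It is 1 of 6 listed markers of Schwann cells, the cells of peripheral nerve, and the others were not all near 0. The 6 summed to 13.9 to 18.5 FPKM per library, and Egr2 reached 4.0 FPKM in the cortex of irradiated mouse 1. Because whole tissue was sequenced, fewer cells of a type and less RNA per cell cannot be told apart. In the hippocampus the library of irradiated mouse 2 stood apart in 8 markers of the choroid plexus epithelium, whose summed FPKM was 65.2 there against 3132 and 4657 in the other irradiated and 3746 to 5860 in the control hippocampi. In the cortex the same sum was 5.4 to 6.24 in control mice 1 and 2, 65.6 in control mouse 3, and 4.18 to 5.62 in irradiated mice.

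The 31 genes ranged from abundant to barely detected transcripts. Mbp, which encodes myelin basic protein, the protein that holds the cytoplasmic faces of compact myelin together, had the highest level in control cortex, with 976, 1105 and 1115 FPKM, and in control hippocampus, with 1623, 1737 and 1380 FPKM. Enpp2, Trf and Cnp came next in the control hippocampus, Trf and Cnp with overlapping ranges. The lowest level there belonged to Ninj2, a homophilic adhesion protein (chr6:120093350-120200339, mm10), with 3.41, 3.21 and 3.71 FPKM. In control cortex Mia, which encodes a small secreted protein, had the lowest mean, at 1.48, 1.11 and 1.96 FPKM, just below Ninj2 at 1.74, 1.84 and 1.86 FPKM, and the ranges of the pair overlapped. The spread between mice was modest, with a median coefficient of variation over the 31 genes of 10.4% in control hippocampus, 6.45% in irradiated hippocampus, 7.59% in control cortex and 7.72% in irradiated cortex.

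In control mice all 31 genes had a higher mean in hippocampus than in prefrontal cortex, and 26 passed the test as higher. Over all 12923 genes tested 15.7% were called higher and 50.9% had a positive difference. The median difference of the 31 genes was 0.47, against 0.01 over all genes tested. For 25 of the 31, every hippocampus library lay above every cortex library, which held for 23.7% of all genes. With the mouse as a block, 28 of the 31 were called, Opalin and Apod being added. Over all genes the block gave 4326 calls in either direction, against 3922 without it. Leaving out 1 library at a time gave 21 to 26 calls of the 31, beside 2920 to 3843 calls over all genes. The fewest of the 31 were called without the hippocampus of control mouse 2. Hapln2, Ugt8a, Tspan2, Pllp and Cnp were the genes that lost their call in at least 1 of these fits. Apod gained one without the hippocampus of control mouse 1 or the cortex of control mouse 2.

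**Figure D1:**
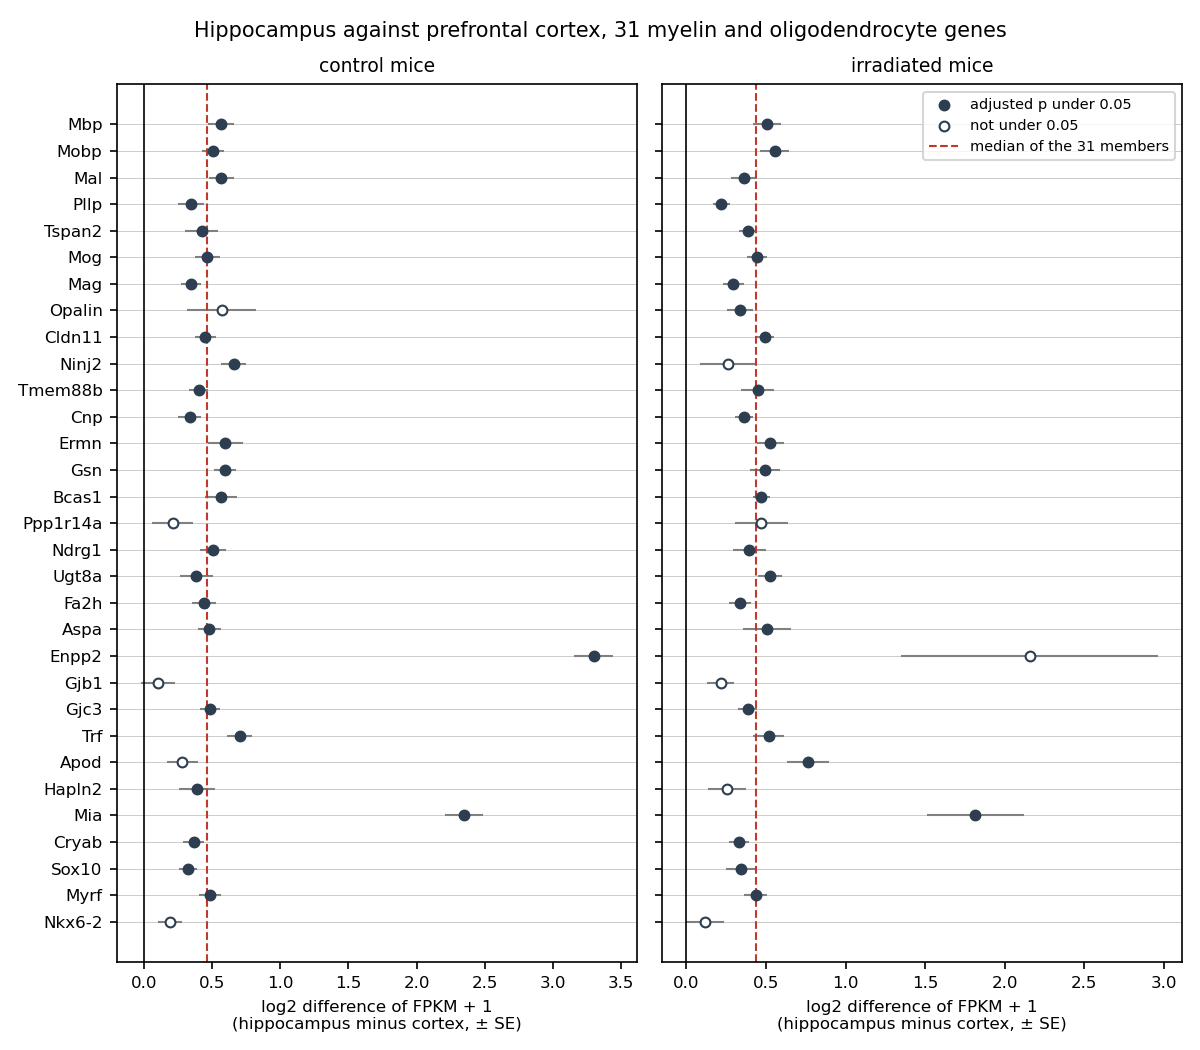
Difference between hippocampus and prefrontal cortex on the log2(FPKM + 1) scale for each of the 31 genes, with SE bars, in 3 control mice (left) and 3 irradiated mice (right). Filled points had an adjusted p under 0.05, and every point lies to the right of 0, with medians of 0.47 and 0.43 marked by the dashed lines.

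Among the compact myelin and raft proteins all 5 genes were called higher in control hippocampus. Mbp was 1.48-fold higher there (difference 0.56 ± 0.10, adjusted p = 0.00198), with no overlap between the regions. Mobp, a further compact myelin protein, stood at 112, 110.0 and 93.7 FPKM in hippocampus and 69.0, 77.0 and 74.9 FPKM in cortex (difference 0.51 ± 0.08, adjusted p = 0.00132). Mal, a raft proteolipid of the sheath, differed by 0.57 ± 0.09 (adjusted p = 0.00141). Pllp and Tspan2, a proteolipid and a tetraspanin of oligodendrocyte membrane, differed by 0.34 and 0.42.

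Of the 6 surface and junction proteins, 5 were called. Ninj2 had the largest difference of these, 0.66 ± 0.09 (adjusted p = 0.000532). Mog and Mag, immunoglobulin-type proteins of the outer and the axon-facing sheath surface, differed by 0.47 and 0.35, and Cldn11, the tight junction protein of myelin, by 0.45. Opalin, an oligodendrocyte membrane glycoprotein, was not called. Its values were 35.4, 21.1 and 30.0 FPKM in hippocampus and 22.4, 11.9 and 24.4 FPKM in cortex (difference 0.57 ± 0.26, adjusted p = 0.128). Control mouse 2 had the lowest Opalin value of its group in both regions.

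The cytoplasmic group gave 5 calls of 6, led by Ermn, a cytoskeletal protein, with 0.60 ± 0.13, and Gsn, the actin-severing gelsolin, with 0.59 ± 0.08. All 4 enzymes were called: Ugt8a and Fa2h, which make and hydroxylate the galactolipids of myelin, differed by 0.38 and 0.44, and Aspa, which cleaves N-acetylaspartate, by 0.48. Of the secreted, matrix and chaperone genes Trf, which encodes the iron carrier transferrin, had 197, 213 and 173 FPKM in hippocampus and 107.5, 129 and 120.4 FPKM in cortex (difference 0.70 ± 0.09, adjusted p = 0.000437). The transcription factors Myrf and Sox10 were called at 0.48 and 0.32.

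The smallest differences between regions in control mice were those of Gjb1, Nkx6-2 and Ppp1r14a, and none of these was called. Gjb1 encodes connexin 32, a gap junction protein of myelin (chrX:101376378-101385629, mm10). It stood at 10.3, 12.1 and 8.40 FPKM in hippocampus and 8.82, 8.90 and 10.6 FPKM in cortex, and the regions overlapped (difference 0.10 ± 0.12, 95% interval -0.18 to 0.38, adjusted p = 0.592). Without control mouse 2's hippocampus the Gjb1 difference was -0.01. Nkx6-2, a homeobox factor of oligodendrocytes, stood at 10.7, 10.3 and 8.64 FPKM in hippocampus and 8.38, 8.80 and 8.36 FPKM in cortex (95% interval of the difference -0.01 to 0.39). Ppp1r14a, an inhibitor of myosin phosphatase, had a 95% interval of -0.12 to 0.54. The intervals of Gjb1 and Nkx6-2 lay below the median of the 31 genes, 0.47, and that of Ppp1r14a included it. Without the hippocampus of control mouse 3 both Ppp1r14a (difference 0.39 ± 0.10, adjusted p = 0.0257) and Nkx6-2 (difference 0.28 ± 0.08, adjusted p = 0.0397) were called.

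In irradiated mice, whose libraries are not shared with the control comparison, the same direction was seen for all 31 genes, and 25 were called higher in hippocampus. Of the 12878 genes tested 13.9% were called higher and 50% had a positive difference. The median was 0.43, and 26 genes had no overlap between the regions (21.4% of all genes). By p-value Cldn11 came first, with 0.49 ± 0.06 (adjusted p = 0.000434), followed by Bcas1, a cytoplasmic protein of oligodendrocytes that are forming myelin, with 0.47 ± 0.05 (adjusted p = 0.000539). Mbp differed by 0.51 ± 0.09 (adjusted p = 0.0037). Not called were Ppp1r14a, Enpp2, Gjb1, Hapln2, Ninj2 and Nkx6-2. With the mouse as a block, 29 were called, the first 4 of these being added. Over all genes the block gave 4629 calls in either direction, against 3758 without it. Leaving out 1 library at a time gave 18 to 26 calls of the 31, beside 2634 to 3492 calls over all genes. The fewest of the 31 were called without the hippocampus of irradiated mouse 1, where Pllp, Mag, Opalin, Tmem88b, Ndrg1, Aspa and Sox10 lost their call. Without the hippocampus of irradiated mouse 2 Ppp1r14a was called (difference 0.59 ± 0.16, adjusted p = 0.0303), as it was after rescaling to equal library totals and with the trend on transcript length removed. Without the cortex of irradiated mouse 3 Hapln2 was called (difference 0.37 ± 0.10, adjusted p = 0.0422). Without the cortex of irradiated mouse 2 Ninj2 was called (difference 0.46 ± 0.12, adjusted p = 0.0334). Markers of other tissue also differed between the dissections. All 8 markers of striatal projection neurons were called lower in hippocampus than in cortex in both treatments. Of all genes, 14.6% in control and 15.3% in irradiated mice were called lower. The 8 markers had summed FPKM of 66.3 to 115.3 in the hippocampi and 750.0 to 968.6 in the cortices. Their part in the region differences was not tested.

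Enpp2 and Mia had the largest region differences in control mice, far beyond the other 29 genes. Enpp2 encodes autotaxin, the secreted enzyme that makes lysophosphatidic acid (chr15:54838901-54952892, mm10). Its values were 781, 688 and 525 FPKM in control hippocampus and 56.9, 68.3 and 72.7 FPKM in control cortex (difference 3.30 ± 0.14, 9.85-fold, adjusted p = 6.69e-07). In irradiated mice Enpp2 stood at 598, 61.1 and 712 FPKM in hippocampus and 62.3, 65.7 and 69.5 FPKM in cortex. The hippocampus of irradiated mouse 2 thus lay at the level of the cortices, and the other 2 at the level of the control hippocampi. With that library the region difference was 2.16 ± 0.81 and was not called (adjusted p = 0.0818), and without it the difference was 3.29 ± 0.10 (adjusted p = 1.79e-06). The same library was the one with low choroid plexus markers: Ttr, the transthyretin gene that defines this epithelium, was at 52.1 FPKM there against 2974 and 4453 in the other irradiated hippocampi.

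Mia (chr7:27179742-27181157, mm10) differed between regions by 2.35 ± 0.14 in control mice (adjusted p = 3.39e-06), with 10.3, 13.5 and 11.5 FPKM in hippocampus. In irradiated mice the difference was 1.82 ± 0.30 (adjusted p = 0.00325), with 5.83, 3.38 and 10.01 FPKM in hippocampus and 1.102, 1.28 and 0.579 FPKM in cortex, and irradiated mouse 2 again had the lowest hippocampal value. The summed choroid plexus level was 3746 to 5860 FPKM in control and 65.2 to 4657 in irradiated hippocampi, and in the hippocampus groups none of its 8 markers was at 0 throughout a group. In control mice all 8 were called higher in hippocampus (15.7% of all genes), and in irradiated mice 7 were (13.9% of all genes). The part of choroid plexus RNA in the Enpp2 and Mia values was not tested.

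**Figure D2:**
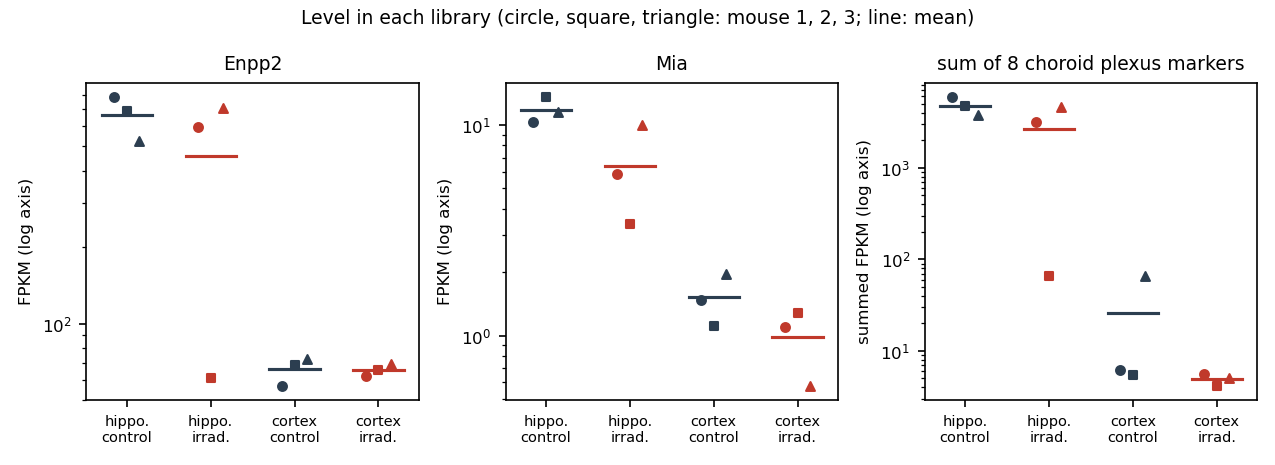
FPKM of Enpp2 and Mia and summed FPKM of 8 choroid plexus markers in each of the 12 libraries, on log axes, with circles, squares and triangles for mouse 1, 2 and 3 and lines at the group means. The hippocampus of irradiated mouse 2 has 61.1 FPKM of Enpp2, within the range of the cortex libraries, and a marker sum of 65.2.

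In the hippocampus, 0 of the 31 genes were called between irradiated and control mice, as were 0% of the 12947 genes tested. The values nevertheless leaned one way. Means were lower in irradiated mice for 28 of the 31 genes, against 53% of all genes tested, and after rescaling to equal library totals for 24 of the 31. The median difference was -0.19 over the 31 genes and -0.01 over all genes. At an unadjusted p under 0.05, 11 genes were lower (5.81% of all genes) and 0 were higher (4.7% of all genes). After rescaling to equal library totals these counts were 4 lower and 3 higher, while the number of all genes at that level in either direction was 1680, against 1361 without rescaling. With median-of-ratios factors the counts were 10 lower and 1 higher (1349 of all genes in either direction). With the transcript length trend removed they were 8 lower and 1 higher (1121 of all genes). In 8 genes every irradiated value lay below every control value, which held for 8.16% of all genes. The smallest adjusted p of the 31 was 0.148.

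**Figure D3:**
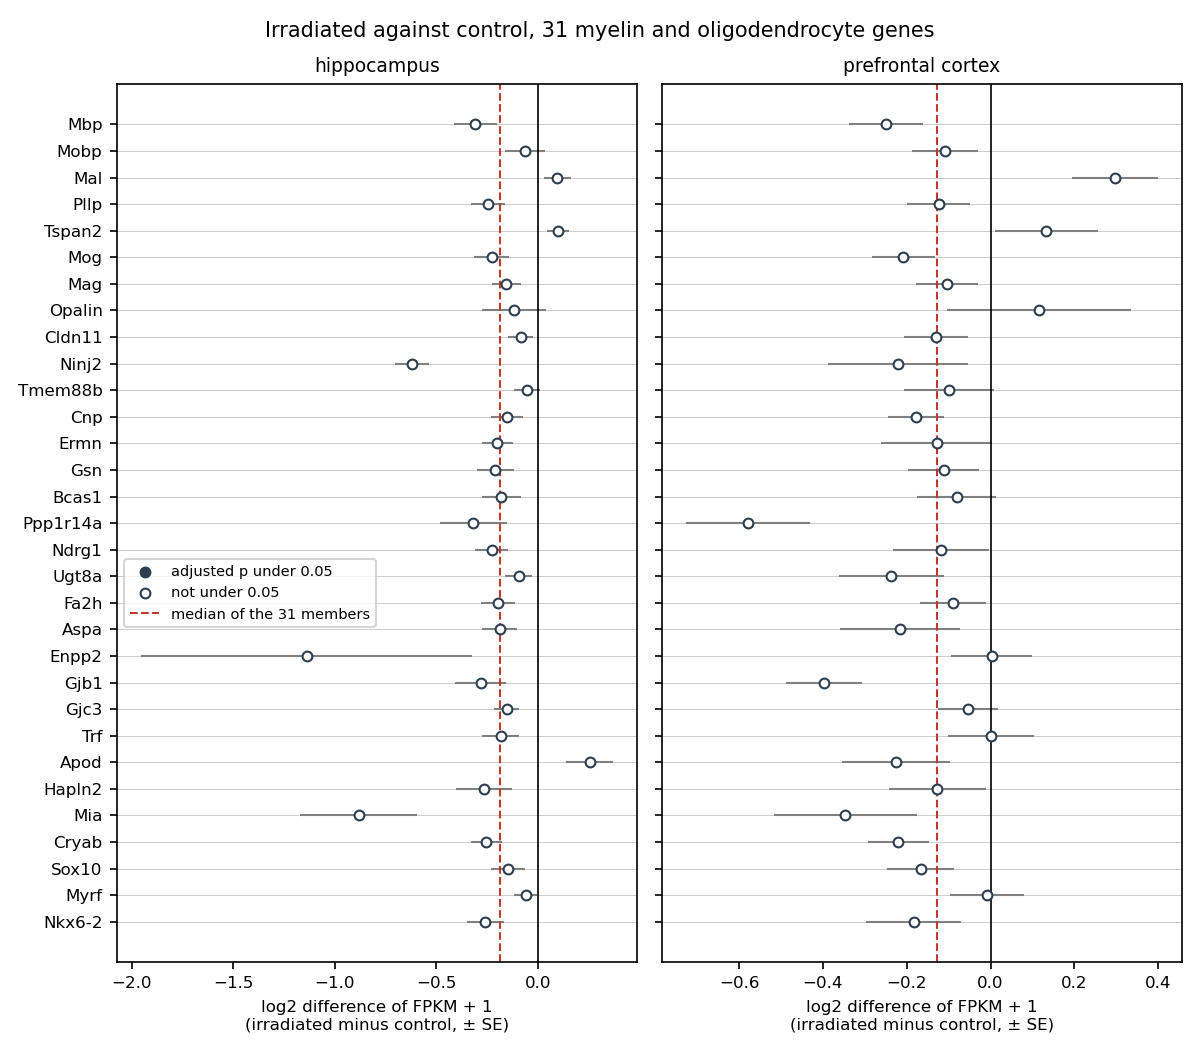
Difference between irradiated and control mice on the log2(FPKM + 1) scale for each of the 31 genes, with SE bars, in hippocampus (left) and prefrontal cortex (right), 3 mice per group. No point is filled, since none reached an adjusted p under 0.05, and most lie to the left of 0, with medians of -0.19 and -0.13 marked by the dashed lines.

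The position of the single libraries bears on these values. In the control hippocampi of mice 1 and 2, 30 and 28 of the 31 genes lay above the mean of the 6 hippocampus libraries, while in that of control mouse 3 only 7 did. The 3 irradiated hippocampi each had 6 genes above that mean. The median deviation of the 31 genes from it was 0.15, 0.15 and -0.04 in the control and -0.06, -0.08 and -0.08 in the irradiated libraries. Without control mouse 3 the number of genes lower at an unadjusted p under 0.05 was 21, and without control mouse 1 or 2 it was 4 or 3. Over all genes, the number with an unadjusted p under 0.05 in either direction was 1361 with all 6 libraries, 1998 without control mouse 3, 580 without control mouse 1 and 962 without control mouse 2.

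Ninj2 had the smallest p of the 31 genes in the hippocampus. It stood at 1.88, 1.89 and 1.89 FPKM in irradiated and 3.41, 3.21 and 3.71 FPKM in control mice, with no overlap (difference -0.62 ± 0.08, adjusted p = 0.148). In the cortex the irradiated values, 1.29, 2.18 and 0.928 FPKM, lay on both sides of the control values of 1.74, 1.84 and 1.86 FPKM. The other surface proteins had smaller differences in the hippocampus. Mog was at 20.4, 21.3 and 20.1 FPKM in irradiated and 27.5, 24.6 and 21.3 FPKM in control hippocampi, with 1 irradiated value just above the lowest control value (difference -0.23 ± 0.09). Mag, Opalin, Cldn11 and Tmem88b, an oligodendrocyte membrane protein, ranged from -0.16 to -0.05.

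Among the compact myelin and raft proteins, Mbp and Pllp were lower without overlap, and Mal and Tspan2 had positive differences. Mbp stood at 1236, 1220 and 1358 FPKM in irradiated hippocampi (difference -0.31 ± 0.11, adjusted p = 0.475), and its lowest control value was that of mouse 3. Pllp stood at 27.3, 27.2 and 27.2 FPKM in irradiated and 33.2, 36.3 and 28.5 FPKM in control hippocampi (difference -0.25 ± 0.08, adjusted p = 0.475). The 3 irradiated Pllp values were nearly identical, and again control mouse 3 was nearest to them. Mobp differed by -0.06 ± 0.10, less than its SE.

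All 6 cytoplasmic genes had negative differences in the hippocampus, with a median of -0.20. Ndrg1, a stress-responsive cytoplasmic protein whose loss is known from a demyelinating neuropathy, stood at 42.3, 39.8 and 41.4 FPKM in irradiated and 47.0, 54.5 and 43.9 FPKM in control mice (difference -0.23 ± 0.08, adjusted p = 0.475). Ermn stood at 21.8, 20.6 and 21.1 FPKM against 24.6, 27.0 and 21.9 FPKM (difference -0.20 ± 0.08). Neither overlapped between groups. Cnp, the phosphodiesterase of the cytoplasmic channels of myelin, differed by -0.15 ± 0.08, and Gsn, Bcas1 and Ppp1r14a by -0.21, -0.18 and -0.32, all with overlap.

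The 4 enzymes also had negative differences. Fa2h stood at 13.9, 12.2 and 12.8 FPKM in irradiated and 15.3, 16.3 and 13.5 FPKM in control hippocampi, with overlap (difference -0.20 ± 0.08). Enpp2 had the largest difference of all 31 genes, -1.14 ± 0.82, with an adjusted p of 0.586, and without irradiated mouse 2 it was -0.01. Of the gap junction genes, Gjc3, which encodes connexin 29, stood at 14.1, 14.2 and 14.4 FPKM against 16.4, 16.7 and 14.8 FPKM without overlap (difference -0.15 ± 0.06), and Gjb1 at 9.10, 7.48 and 8.02 FPKM with overlap (difference -0.28 ± 0.12).

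Among the secreted, matrix and chaperone genes, Cryab, which encodes the small heat shock protein alpha B-crystallin (chr9:50751325-50756636, mm10), stood at 91.9, 82.8 and 93.4 FPKM in irradiated and 117, 102 and 101 FPKM in control hippocampi, with no overlap (difference -0.25 ± 0.07, adjusted p = 0.475). Exons of Cryab overlap those of Hspb2 on the other strand, and Hspb2 itself did not exceed 1.83 FPKM. Mia differed by -0.88 ± 0.29, and by -0.55 without irradiated mouse 2. Apod, a lipid-binding secreted protein, had the only positive difference of this group, with 98.3, 113 and 126 FPKM in irradiated and 80.7, 105 and 96.2 FPKM in control hippocampi and overlapping ranges (difference 0.26 ± 0.12). Hapln2, a link protein of the matrix at nodes of Ranvier, differed by -0.26 ± 0.14.

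The 3 transcription factors had negative differences too. Nkx6-2 stood at 8.05, 8.71 and 7.52 FPKM in irradiated and 10.7, 10.3 and 8.64 FPKM in control hippocampi, with 1 irradiated value above the lowest control value (difference -0.26 ± 0.09). Sox10 differed by -0.15 ± 0.08, and Myrf, the factor that switches on the myelin genes, by -0.06 ± 0.06, about its SE.

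In the prefrontal cortex 0 of the 31 genes were called either, against 0.00786% of 12729 genes called higher and 0% called lower. Means were lower in irradiated mice for 26 of the 31 (48.8% of all genes), and for 24 after rescaling to equal library totals, with a median difference of -0.13 against 0.00 over all genes. At an unadjusted p under 0.05, 6 genes were lower (4.79% of all genes) and 1 was higher (2.44%). After rescaling to equal library totals 2 were lower and 1 higher, with 1340 of all genes at that level in either direction, against 920 without rescaling. With median-of-ratios factors 6 were lower and 1 higher (928 of all genes in either direction). With the transcript length trend removed 5 were lower and 1 higher (828 of all genes). In 8 genes every irradiated value lay below every control value (7.44% of all genes). Cryab, Mbp and Pllp were the genes without overlap in both regions.

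Gjb1 had the smallest p in the cortex, with 7.38, 6.68 and 6.65 FPKM in irradiated against the control values given above (difference -0.40 ± 0.09, adjusted p = 0.371). No irradiated value reached the lowest control value. Ppp1r14a had the largest difference of the 31 genes in the cortex. Its values were 32.9, 21.5 and 29.9 FPKM in irradiated and 41.0, 47.9 and 37.3 FPKM in control mice, without overlap (difference -0.58 ± 0.15, adjusted p = 0.436). In the hippocampus its ranges, 44.9, 32.4 and 39.9 against 55.4, 54.8 and 37.7 FPKM, overlapped. In both regions irradiated mouse 2 had the lowest Ppp1r14a value.

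Cryab stood at 73.8, 68.9 and 69.8 FPKM in irradiated and 82.2, 78.0 and 87.8 FPKM in control cortex (difference -0.22 ± 0.07, adjusted p = 0.536), which is close in size to its hippocampal difference. Mbp stood at 924.5, 865 and 894.5 FPKM in irradiated cortex, below all control values (difference -0.25 ± 0.09, adjusted p = 0.559). Mog and Cnp also did not overlap between the groups. Mog was at 16.1, 14.2 and 14.4 FPKM against 17.5, 16.9 and 17.7 FPKM (difference -0.21 ± 0.07). Cnp was at 118, 119.8 and 121 FPKM against 135, 129.7 and 143 FPKM (difference -0.18 ± 0.07). Exons of Cnp overlap those of Dnajc7 on the other strand. Dnajc7 stood at 60.35 to 71.15 FPKM in irradiated and 67.77 to 72.33 FPKM in control cortex, and its part in the Cnp values was not tested.

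Of the other cortical members, Sox10 and Pllp were lower without overlap, at -0.17 and -0.12, and neither had an unadjusted p under 0.05. Positive differences were found for Mal, Tspan2, Opalin, Enpp2 and Trf. Those of Enpp2 and Trf were near 0, and Opalin had 0.12 ± 0.22, where control mouse 2 held the lowest value of the region. Enpp2, which differed most in the hippocampus, had a 95% interval of -0.21 to 0.22 in the cortex. Of the 31 genes, 16, 26 and 31 lay above the mean of the 6 cortex libraries in control mice 1, 2 and 3. In irradiated mice 1, 2 and 3 the numbers were 10, 5 and 12. The median deviation from that mean was 0.0006, 0.11 and 0.13 in the control and -0.03, -0.15 and -0.02 in the irradiated libraries. In the cortex the irradiated library with the lowest values was that of mouse 2, which was the lowest of the 6 cortex libraries for 15 of the 31 genes. Without it 8 genes were lower at an unadjusted p under 0.05 and the median was -0.09. Without control mouse 3 that count was 2. Over all genes the number with an unadjusted p under 0.05 in either direction was 920 with all 6 libraries, 825 without irradiated mouse 2 and 671 without control mouse 3.

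**Figure D4:**
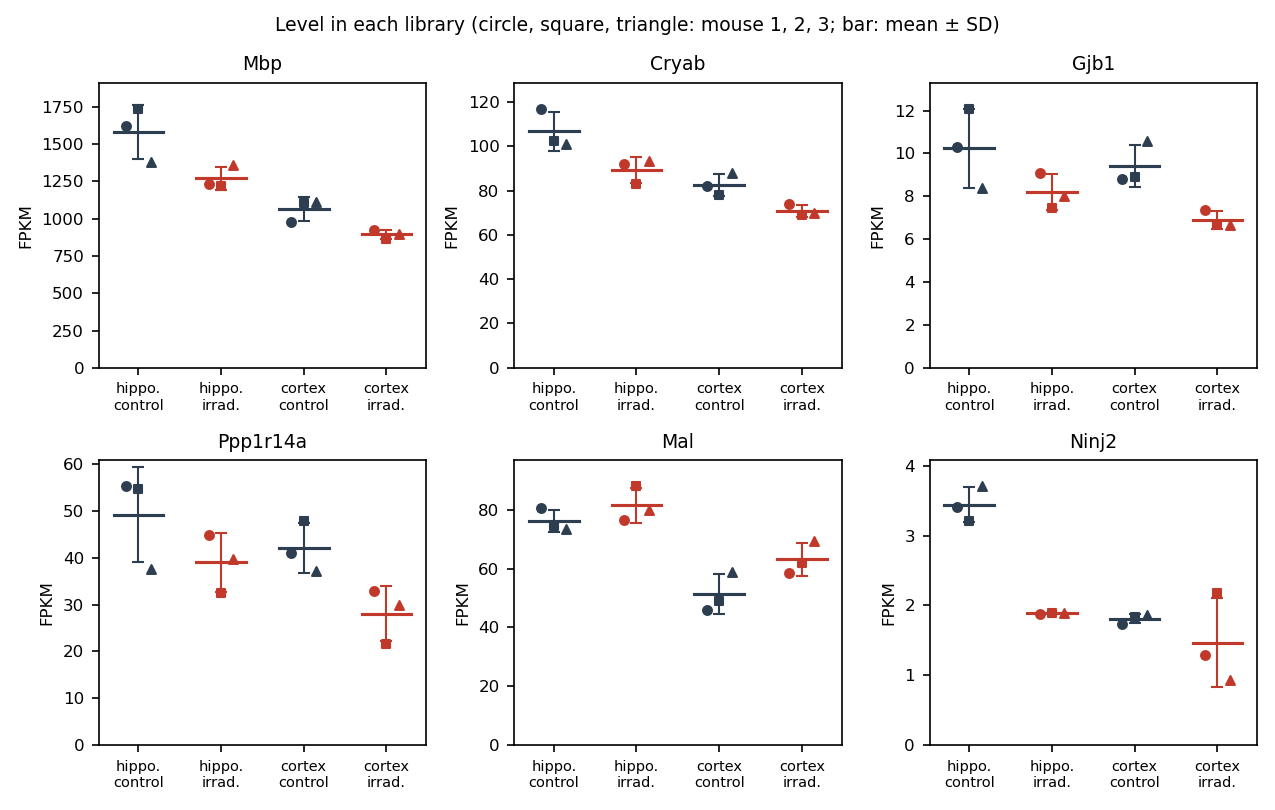
FPKM of 6 of the 31 genes in each of the 12 libraries, with circles, squares and triangles for mouse 1, 2 and 3 and bars for the mean ± SD of each group of 3. Mbp and Cryab do not overlap between irradiated and control mice in either region, Gjb1 and Ppp1r14a do not overlap in the cortex, Ninj2 does not overlap in the hippocampus, and Mal is higher on average in irradiated mice in both regions.

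When the 2 libraries of each mouse were averaged, so that 3 irradiated mice were compared with 3 controls, 28 of the 31 genes had negative differences (51.9% of all genes), and 25 after rescaling to equal library totals, with a median of -0.16. None was called, against 0.00776% of 12894 genes called lower. At an unadjusted p under 0.05, 12 genes were lower (6.07% of all genes) and 1 was higher (4.04%), and after rescaling to equal library totals 6 were lower and 2 higher. With median-of-ratios factors, and likewise with the transcript length trend removed, 10 were lower and 1 higher. Over all genes the number at that level in either direction was 1304 in the main fit, 2012 with equal totals, and 1311 and 1075 in the last 2 fits. In 13 genes every irradiated mouse lay below every control mouse (8.84% of all genes), and in 1, Mal, above (8.28%). The smallest adjusted p was that of Mia, 0.334 (difference -0.61 ± 0.11). Gjb1 followed with -0.34 ± 0.07 (adjusted p = 0.355), Ninj2 with -0.42 ± 0.10 and Cryab with -0.24 ± 0.06. Averaging the regions uses the libraries of the comparisons above and adds no mice.

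The irradiation difference itself was compared between the regions. None of the 31 genes was called, as was none of the 12894 genes tested (0% in each direction), and the smallest adjusted p of the 31 was 1. At an unadjusted p under 0.05 there was 1 gene, Apod (1.92% of all genes were higher and 1.35% lower at that level). Apod had a positive difference in hippocampus and a negative one in cortex, 0.26 and -0.23, with 56.5, 63.2 and 78.2 FPKM in irradiated and 70.9, 89.4 and 71.1 FPKM in control cortex, and the contrast was 0.48 ± 0.19. For Ninj2 the contrast was -0.40 ± 0.20. The median over the 31 genes was -0.06, against -0.01 over all genes. Since the region difference in irradiated mice minus that in control mice is the same contrast, no gene was shown to differ between treatments in its regional level.

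Mal (chr2:127633226-127656695, mm10) and Tspan2 had positive differences in both regions, unlike most of the 31 genes. In the cortex Mal stood at 58.4, 61.8 and 69.3 FPKM in irradiated and 46.0, 49.1 and 59.0 FPKM in control mice, where 1 irradiated value lay below the highest control value (difference 0.30 ± 0.10, adjusted p = 0.557). In the hippocampus it stood at 76.4, 88.1 and 80.1 FPKM and 80.5, 74.6 and 73.3 FPKM, with overlap (difference 0.10 ± 0.07, adjusted p = 0.582). Those of Tspan2 were 0.10 ± 0.06 and 0.13 ± 0.12 in hippocampus and cortex. Exons of Tspan2 overlap those of Tspan2os on the other strand.

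A ratio within a library does not depend on how the library was scaled. These ratios were chosen after the values had been seen and carry no test. Mal as a percentage of Mbp was 6.18%, 7.22% and 5.9% in irradiated and 4.96%, 4.29% and 5.32% in control hippocampi. In the cortex it was 6.32%, 7.14% and 7.74% in irradiated and 4.71%, 4.45% and 5.29% in control mice. The groups did not overlap in either region. Tspan2 as a percentage of Mbp was 2.46%, 2.65% and 2.38% in irradiated against 1.89%, 1.62% and 2.16% in control hippocampi, and 2.53%, 2.71% and 2.8% against 1.87%, 1.89% and 2.42% in cortex, again without overlap. Mal and Tspan2 had positive and Mbp negative differences in both regions, so the separation of their ratios is in part set by the choice of the genes. None of these genes was called between treatments, and a ratio does not say which of its genes differs.

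**Figure D5:**
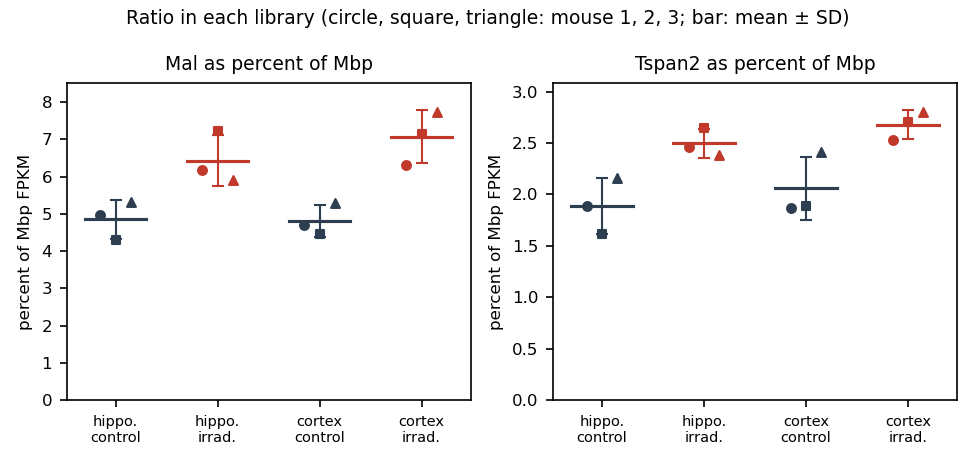
FPKM of Mal (left) and Tspan2 (right) as a percentage of the FPKM of Mbp in the same library, with circles, squares and triangles for mouse 1, 2 and 3 and bars for the mean ± SD of each group of 3. In both regions all irradiated mice lie above all control mice, with Mal at 5.9% to 7.74% in irradiated and 4.29% to 5.32% in control libraries.

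Each gene was also set against the median of the members in its library, taken without Enpp2 and Mia. That median includes the gene itself and can be its own value. Tspan2 was the median in the hippocampi of control mice 1 and 2, and Opalin was in every irradiated library. The Tspan2 values on this scale therefore depend in part on which gene held the middle. On this relative scale the groups failed to overlap in few genes: Mal was higher in both regions, by 0.26 in hippocampus and 0.34 in cortex, Tspan2 was higher in hippocampus by 0.26, Ninj2 was lower in hippocampus, with a difference of -0.70, and Gjb1 was lower in cortex, with a difference of -0.41. These are log2 differences without a test. The share of all genes without overlap was not computed on this scale, so whether these genes stand apart was not tested.

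Genes of neighbouring stages were counted from 2 further lists. Of 24 other genes of mature oligodendrocytes, 23 had negative differences in irradiated hippocampus and 22 in irradiated cortex, with medians of -0.21 and -0.17, and 0 were called in either region. At an unadjusted p under 0.05, 12 were lower in hippocampus (5.81% of all genes) and 7 in cortex (4.79% of all genes). Car2, which encodes a carbonic anhydrase of oligodendrocytes, differed by -0.32 ± 0.07 in hippocampus (adjusted p = 0.417), and Gamt, an enzyme of creatine synthesis, by -0.38 ± 0.07 in cortex (adjusted p = 0.3). Of 20 genes of precursors and newly committed cells, 9 had negative and 11 positive differences in hippocampus, with a median of 0.00, and 17 had negative differences in cortex, with a median of -0.04. None was called. Nkx2-2, a homeobox factor of the lineage, had the smallest p of the precursor list in cortex (-0.53 ± 0.15, adjusted p = 0.475), and Tnr, a matrix protein, in hippocampus (0.28 ± 0.11, adjusted p = 0.475).

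Between regions in control mice, 11 of the 24 other mature genes were called higher in hippocampus (15.7% of all genes) and 0 lower (14.6% of all genes), with a median difference of 0.26. Of the 20 precursor genes, 5 were called higher and 2 lower, beside 15.7% and 14.6% of all genes, with a median of 0.15. Among them Cacng4, a subunit of neurotransmitter receptor complexes that neurons also express, was lower by -1.03 ± 0.09 (adjusted p = 3.8e-05). The medians of both lists lay below the 0.47 of the 31 genes, and the difference between the lists was not tested.

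Markers of some other cell types also leaned one way with treatment. All 8 endothelial markers had positive differences in the hippocampus, 6 at an unadjusted p under 0.05 (4.7% of all genes) and 0 called. Their median was 0.56, and their summed FPKM was 58.6 to 66.1 in irradiated and 29.3 to 40.7 in control mice. Of 8 microglia markers in hippocampus 7 had negative differences, 3 at an unadjusted p under 0.05 (5.81% of all genes) and 0 called. Their median was -0.15. The 10 neuron and 10 astrocyte markers there each split 5 to 5, with medians of 0.00. Of 8 ependymal markers in hippocampus 7 had negative differences, 3 at an unadjusted p under 0.05 (5.81% of all genes) and 0 called. Their median was -0.36, and their summed FPKM was 47.6 to 79.5 in irradiated and 73.2 to 85.9 in control mice. Of 7 fibroblast markers tested there 5 had positive differences, 3 at an unadjusted p under 0.05 (4.7% of all genes) and 0 called. The median of the 7 was 0.31. In the cortex all 6 fibroblast markers tested had negative differences, 5 at an unadjusted p under 0.05 (4.79% of all genes) and 0 called. Their median was -0.37. The sum of the 8 listed fibroblast markers there was 15.9 to 26.0 in irradiated and 28.7 to 32.5 in control mice, without overlap. In the cortex the endothelial sum was 66.0 to 76.7 in irradiated and 55.6 to 59.4 in control mice. No marker of these lists was at 0 throughout a group. The sum of all FPKM values of a library was 387367 to 419823 in irradiated and 417801 to 435534 in control hippocampi. The part of these shifts in the values of the 31 genes was not tested.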

How the data were processed

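The labels' protocols name Trizol extraction and the NEBNext Ultra II Directional kit. The aligner was TopHat and the genome mm10, per the submitters' processing notes. Counting tool, annotation and strand setting were not given in the sources used here. Deposited tables hold 1 value per gene symbol and no header names the unit. The values were taken as FPKM that the authors computed, since each value times the longest transcript length (GENCODE M21, 95.5% of symbols matched), summed over a library, came to 1.20 M to 1.25 M (mega). The authors' tables hold no counts, so no count model was used.

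Groups were taken from the titles. In limma 3.58.1 (R 4.3.3), log2(FPKM + 1) was fitted, for genes whose mean in the libraries compared reached 1 FPKM, with a mean-variance trend, two-sided, with Benjamini-Hochberg adjustment over all genes and a threshold of 0.05. The fit was tested on simulated data. The gene list, marker lists and comparisons were chosen with earlier results of these data known. Library values are given for genes with an unadjusted p under 0.05 between treatments or in the regional contrast, for the 3 largest and 3 smallest region differences in control mice, and for at least 1 gene of each role. Genes of the other oligodendrocyte lists were named by smallest p.

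Libraries of 1 mouse share a number in the titles. Deviations from the group means of same-numbered libraries correlated across regions at 0.17, 0.26 and 0.30 in irradiated and 0.29, -0.01 and 0.05 in control mice. Between libraries of unlike number, the highest correlation across regions was -0.04 in irradiated and 0.17 in control mice. The latter exceeded the values of control mice 2 and 3. Across treatments equal numbers mark different mice. Their correlations were 0.14, 0.12 and 0.12 in cortex and 0.10, -0.02 and -0.16 in hippocampus, where unlike numbers reached 0.24. The replicate block nevertheless paired those numbers in the alternative fits between treatments, which has no basis in the design. Alternatives were a pseudocount of 0.1, no minimum or 5 FPKM, equal totals, median-of-ratios factors, removal of a transcript length trend, robust moderation, the replicate block, 1 fit over all libraries and leaving out each library.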

Additional observations from a re-analysis of the deposited data

How the results depend on the processing

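None of the 31 genes was called between treatments, or in the regional contrast, under any alternative run. Rescaling to equal totals moved the median difference between treatments by more than 1 SD of the between-library spread, to -0.11 in hippocampus, -0.05582 in cortex and -0.08357 for the mean of both regions. It brought the median of all genes to 0.07 in both regions and turned the sign of 4 of the 31 genes in hippocampus and 2 in cortex, to values of at most 0.06. The median of the 31 genes minus that of all genes was then -0.1753 in hippocampus, -0.1262 in cortex and -0.151 for the mean of both regions. In the main fits it was -0.1788, -0.1303 and -0.1594. Leaving out each library in turn gave medians of -0.26 to -0.15 in hippocampus, with the lowest, -0.2638, without control mouse 3, -0.18 to -0.09 in cortex, -0.15 to -0.01832 for the regional contrast, again lowest without that library (-0.1455), and -0.19 to -0.11 for the mean of both regions. The number of the 31 genes called between regions was 21 to 26 in control mice and 18 to 26 in irradiated mice, with medians of 0.43 to 0.53 and 0.37 to 0.46. Over all genes these fits gave 2920 to 3843 and 2634 to 3492 calls. Gjb1 had a difference of -0.01451 between regions in control mice without the hippocampus of control mouse 2, and at most 0.2239 without any other library, that of control mouse 3. With the replicate block, 28 and 29 of the 31 genes were called between regions in control and irradiated mice, and 0 between treatments in either region. The block changed no other call. The tables hold no counts, so the counting error behind low values such as those of Ninj2 and Mia is unknown.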
